A study of Mus musculus with 16 samples.

Results

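The genes of 10 transcription factors that govern hematopoietic stem cells (HSCs), namely Tal1, Lyl1, Lmo2, Fli1, Erg, Meis1, Mecom, Gfi1, Gfi1b and Hhex, were examined for 3 histone marks in young and aged HSCs. These members were chosen by name from the 21851 protein-coding genes of the GENCODE M21 annotation of the mouse genome (build mm10), and all 10 were found. A peak was counted in a gene window when it overlapped the gene body or the 5 kb on either side by at least 1 bp. It was counted at a promoter when it reached within 1 kb of an annotated start of a protein-coding transcript, of which the 10 genes had 31.

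HSCs came from the bone marrow of C57BL/6 mice, which were 10 weeks old (young) or 20 months old (aged) and, per the study's methods, female. The cells were sorted as Lin- c-kit+ Sca-1+ cells that were CD150+ and also CD34-, CD48-, Flt3- and IL-7Rα-, with no genetic change or treatment at either age. H3K4me3, H3K27me3 and H2AK119ub1 were each profiled by chromatin immunoprecipitation with sequencing (ChIP-seq) in 2 libraries an age, beside 2 input libraries an age. Only 1 pooled peak list per mark and age was analysed here, so there is no replicate error, and differences between ages or genes are given without a test. How many mice went into a library is not given in the sources used here.

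These factors bind together at many regulatory elements of HSCs and also at each other's genes. TAL1 and LYL1 bind E-box motifs with partner proteins and LMO2 bridges them to GATA factors, whereas FLI1 and ERG bind ETS motifs. Of the marks, H3K4me3 lies at the start sites of active genes, and H3K27me3 and H2AK119ub1 are placed by the Polycomb repressive complexes PRC2 and PRC1. A promoter with both H3K4me3 and H3K27me3 is often called bivalent.

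The lists differed in size between ages, and every count below has to be read beside that. On chromosomes 1 to 19, X and Y the H3K4me3 lists held 11371 peaks in young and 6723 in aged HSCs. The H3K27me3 lists held 63142 and 20419 regions, and the H2AK119ub1 lists 2593 and 17768. Of the HSC marker genes, Procr, Hlf and Mllt3 had an H3K4me3 peak at a promoter at both ages. Kit had such a peak in aged HSCs alone, and Ly6a and Slamf1, which encode the sorted antigens Sca-1 and CD150, had none at either age. The B cell gene Cd79a, the T cell genes Cd3e and Cd3g, the granulocyte genes Elane and Mpo and the monocyte genes Csf1r and Itgam had none at either age. Of 10 genes active in most cells, only 5 in young and 4 in aged HSCs had an H3K4me3 peak at a promoter, so the lack of a peak does not show that the mark was absent.

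H3K4me3 was found at the promoters of most members. In young HSCs 7 of the 10 genes (Tal1, Lyl1, Lmo2, Fli1, Erg, Meis1 and Mecom) had a promoter peak, against 33.8% of all genes. In aged HSCs 6 of 10 (Tal1, Fli1, Erg, Meis1, Mecom and Hhex) had one, against 23.3% of all genes. A promoter peak at both ages was seen at 5 of 10 (Tal1, Fli1, Erg, Meis1 and Mecom) and at 17.5% of all genes. Over whole gene windows, the young count was the same 7 genes (40.6% of all genes) and the aged count was 8 (29.0% of all genes), since Lyl1 and Lmo2 kept peaks that lay more than 1 kb from a start site.

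The Polycomb marks were counted in the same way, beside the share of all genes. H3K27me3 lay at the promoters of Erg and Gfi1 at both ages, which was 2 of 10 against 16.0% of all genes in young and 2 of 10 against 8.24% in aged HSCs. The same 2 genes were the only members with H3K27me3 anywhere in the window, where the shares of all genes were 27.8% and 16.5%. H2AK119ub1 lay at 1 promoter, that of Erg, in young HSCs (1.91% of all genes). In aged HSCs it lay at 4 (Fli1, Erg, Gfi1 and Hhex, against 14.0% of all genes). In gene windows it was found at 2 members in young HSCs (Erg and Gfi1, against 5.99%) and at 8 in aged HSCs (all but Lmo2 and Gfi1b, against 29.0%). When the aged list was cut to its 2593 top regions, the size of the young list, the counts were 1 at a promoter (Hhex) and 3 in a window (Erg, Gfi1 and Hhex). The part that list length has in the H2AK119ub1 difference was not tested.

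**Figure D1:**
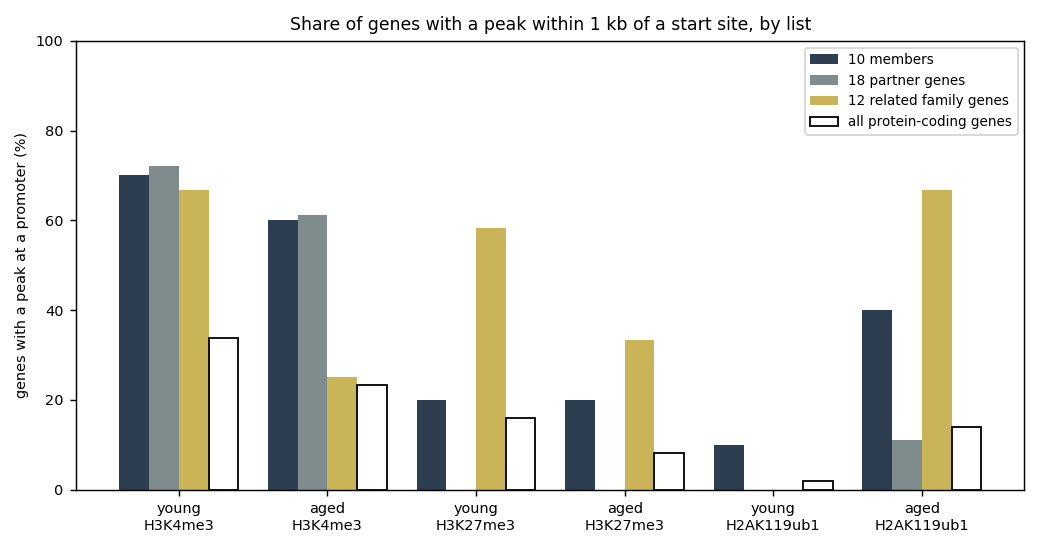
Percentage of genes with a peak within 1 kb of a start site (vertical axis) in each of the 6 lists, for the 10 members, 18 partner genes, 12 related family genes and all protein-coding genes. The members stand at 70.0% and 60.0% for H3K4me3, above the 33.8% and 23.3% of all genes, and at 40.0% for aged H2AK119ub1, against 14.0%.

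Measured as density, the members' windows, 1.25 Mb in all, held 35.9 H3K4me3 peaks per Mb in young and 23.1 in aged HSCs, against 9.0 and 5.37 in all gene windows. Per Mb they held fewer H3K27me3 regions than all gene windows, 6.38 and 2.39 against 29.5 and 10.7. Such densities rest largely on a few long genes. Mecom (597 kb), Meis1 (139 kb) and Fli1 (121 kb) had no H3K27me3, and Erg (227 kb) had some. Counted by gene, 2 of 10 windows held it at each age, against 27.8% and 16.5% of all genes. For H2AK119ub1 the members' windows held 2.39 per Mb in young HSCs, near the 1.65 of all genes, and 20.7 in aged HSCs, against 11.2. The aged-to-young ratio of the length under peaks was 0.429 for H3K4me3 in the members and 0.534 in all gene windows. For H3K27me3 it was 0.221 and 0.26, and for H2AK119ub1 it was 12.5 and 7.9. In each mark the members moved in the direction of all genes.

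**Figure D2:**
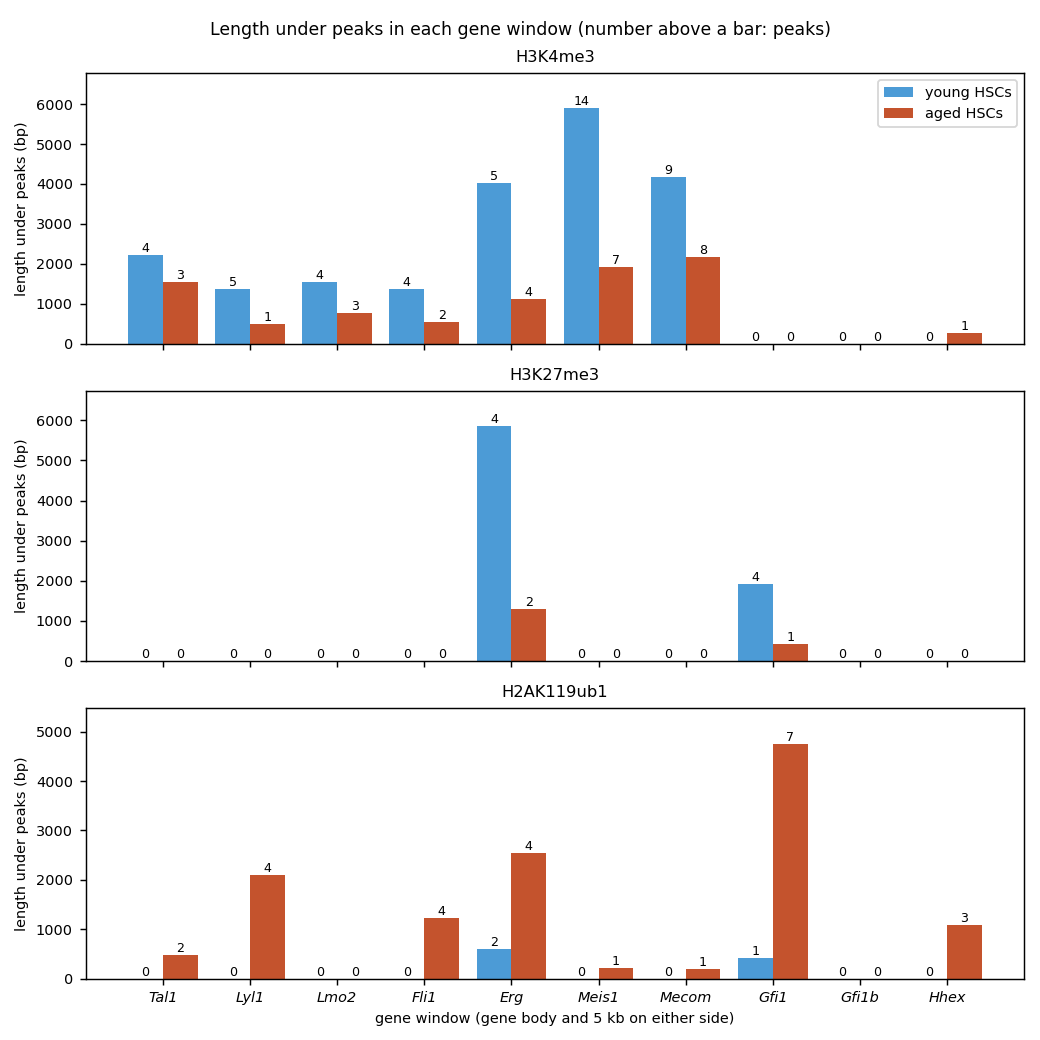
Length under peaks (bp, vertical axis) in each member's gene window for the 3 marks, in young and aged HSCs; the number above a bar counts peaks. For H3K4me3 the young bar is the taller for all 7 genes marked at both ages, Meis1 is highest in young (5892 bp) and Mecom in aged HSCs (2179 bp), and for H2AK119ub1 the aged bar is the taller for all 8 marked genes.

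Of the 45 H3K4me3 peaks in the members' windows in young HSCs, 12 lay at a promoter, 29 lay wholly downstream of the nearest start site and 6 were more than 10 kb from it. Of the 29 aged peaks, 11 lay at a promoter and 20 downstream. Their median width was 316 bp in young and 246 bp in aged HSCs, beside 296 and 270 bp over the whole lists. The number of reads at each summit was worked out from the fold enrichment and p-value of the peak. It ranged from 16 to 29 in young and from 16 to 24 in aged HSCs, over a background of 3.52 to 11.9 reads. Of the young peaks 16 of 45 overlapped an aged peak, against 31.5% of the whole young list. Of the aged peaks 19 of 29 overlapped a young peak, against 53.1% of the whole aged list.

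**Figure D3:**
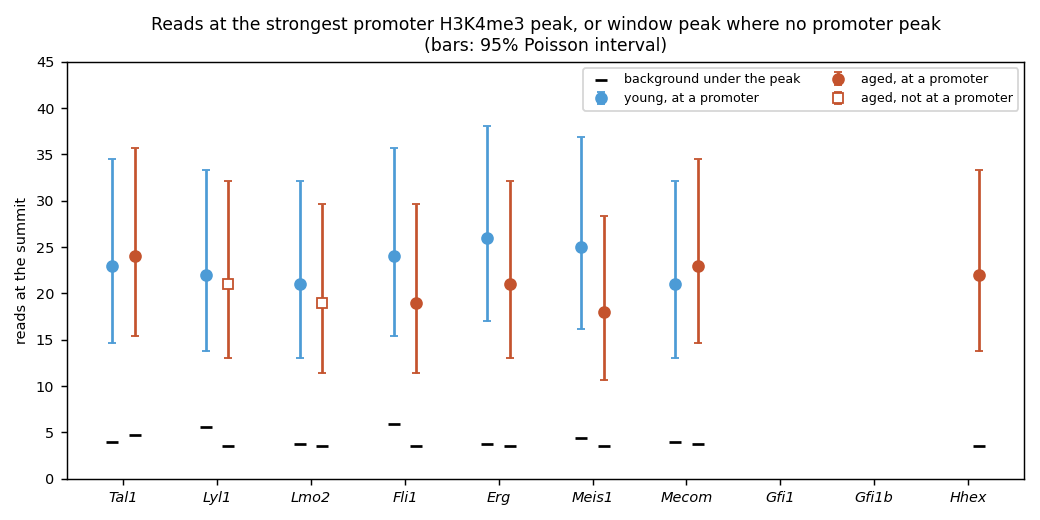
Reads at the summit (vertical axis, counts) of the promoter H3K4me3 peak with the highest −log10 q of each gene, or, as open squares, of the window peak with the highest −log10 q where no promoter held one, with the 95% Poisson interval of counting error and the background as a black dash. Some genes had a peak of higher −log10 q away from their promoters. In young HSCs these were Lmo2 (9.02 against 5.94, with 26 reads against 21), Meis1 (8.39 against 7.25), Fli1 (6.42 against 4.65) and Lyl1 (4.96 against 4.11). In aged HSCs it was Meis1 (6.42 against 4.16). The intervals of young and aged HSCs overlap for each of the 7 genes with peaks at both ages, and Gfi1 and Gfi1b have no point. Only called peaks are drawn, and reads are not scaled for library size, so the overlap cannot show that the mark was equal. For Lyl1 and Lmo2 a young promoter peak stands beside an aged peak elsewhere.

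The basic helix-loop-helix genes and their bridging factor were marked by H3K4me3 without H3K27me3. Tal1 (ENSMUSG00000028717.12, chromosome 4, 115056426 to 115071755, plus strand) encodes a factor needed for the formation of HSCs. Of the members it had the most H3K4me3 within 1 kb of a single start site at both ages, that of transcript Tal1-203 at 115057811. In young HSCs a peak of 1572 bp (115057107 to 115058678) lay over this start with 4.84-fold enrichment and 23 reads at the summit (95% Poisson interval 14.6 to 34.5). Only 2 of the 21851 genes, Tal1 included, had as much H3K4me3 within 1 kb of a start site (0.00915%). In aged HSCs the same place held peaks of 903 bp and 355 bp, together 1258 bp within 1 kb of the start, and 4 genes had as much (0.0183%). The stronger of the aged peaks had 4.35-fold enrichment and 24 reads (15.4 to 35.7). The summit counts of the ages differed by less than their counting error. Start sites 115056426 and 115059508 of the same gene had 320 and 384 bp in young and 347 and 22 bp in aged HSCs. Both aged H2AK119ub1 regions of the window lay away from the start sites, the nearer at 4924 bp.

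The sequence under the stronger aged summit of Tal1 is shown because it lay under a peak at both ages (mm10, chr4:115058210-115058509, plus strand). Capitals in this and the later sequences mark matches, on either strand, to the motifs of GATA factors (AGATAA), of ETS factors (CCGGAA), of RUNX factors (TGTGGT), of E-box binding factors (CAGCTG or CAGATG), of MEIS factors (TGACAG) and of GFI factors (AAATCA). No matches overlapped in the sequences shown. These 300 bases held no match.
Tal1, aged H3K4me3 peak: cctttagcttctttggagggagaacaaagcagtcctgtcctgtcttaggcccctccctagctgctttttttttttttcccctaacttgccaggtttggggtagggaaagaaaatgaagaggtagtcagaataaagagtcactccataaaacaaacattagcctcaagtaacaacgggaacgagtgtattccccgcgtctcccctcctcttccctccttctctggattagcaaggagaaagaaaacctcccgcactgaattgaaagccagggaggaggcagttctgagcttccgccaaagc

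Lyl1 (ENSMUSG00000034041.4, chromosome 8, 84701457 to 84704715, plus strand) encodes the close relative of TAL1 and has a single start site. The gene lies within the annotated body of Nfix on the other strand, so peaks over it belong to both genes by position. In young HSCs its window held 5 H3K4me3 peaks of 219 to 352 bp. The peak at the promoter (84702005 to 84702261, 548 bp downstream of the start) had 3.52-fold enrichment and 22 reads (13.8 to 33.3). The peak farthest upstream overlapped an exon at the end of the neighbouring gene Trmt1 and lay within 1 kb of an annotated Trmt1 start. In aged HSCs 1 peak was listed, of 481 bp (84703270 to 84703750), 1813 bp downstream of the start, with 4.86-fold enrichment and 21 reads (13.0 to 32.1). It overlapped 2 young peaks by position, those at 84702961 and 84703478, and it also overlapped an aged H2AK119ub1 region of 1027 bp by 299 bp. Lyl1 had 4 such aged regions (2088 bp in all), of which 2 lay within 1 kb of start sites of Nfix, and no Polycomb region in young HSCs. The sequence of the aged peak around its summit (mm10, chr8:84703411-84703710, plus strand) is shown because the single aged peak of the gene lay outside its promoter. It held 3 matches to the RUNX motif and 2 CpG dinucleotides.
Lyl1, aged H3K4me3 peak: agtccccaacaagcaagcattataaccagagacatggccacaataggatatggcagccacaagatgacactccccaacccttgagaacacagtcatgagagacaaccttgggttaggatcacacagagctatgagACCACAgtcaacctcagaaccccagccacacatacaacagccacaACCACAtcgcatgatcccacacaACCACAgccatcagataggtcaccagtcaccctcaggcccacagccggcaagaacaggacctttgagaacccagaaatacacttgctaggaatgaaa

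Lmo2 (ENSMUSG00000032698.15, chromosome 2, 103957986 to 103981878, plus strand) encodes the LIM-only protein that links TAL1 and LYL1 to other factors. Its annotated start sites fall in a proximal group (103970129, 103970223 and 103970244) and a distal site (103957995), and H3K4me3 was found near the proximal group alone. In young HSCs 4 peaks lay there, at 103968209 to 103972450, with 1541 bp in all. The strongest, of 405 bp with 5.74-fold enrichment and 26 reads (17.0 to 38.1), lay 1396 bp downstream of 103970244. The peak at the promoter had 4.68-fold enrichment and 21 reads (13.0 to 32.1). In aged HSCs 3 peaks with 771 bp lay at 103968827 to 103972991, all more than 1 kb from a start site, the nearest at 1094 bp. Lmo2 therefore left the promoter count while its peaks stayed in the same 4.24 kb stretch or just beyond it. No Polycomb region was listed at either age. The gene 4931422A03Rik on the other strand overlaps these peaks.

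The ETS genes differed from each other in their Polycomb marks. Fli1 (ENSMUSG00000016087.13, chromosome 9, 32422204 to 32542861, minus strand) had 4 H3K4me3 peaks with 1358 bp in young and 2 with 537 bp in aged HSCs, around its start site at 32541595, with peaks on both sides in young and upstream alone in aged HSCs. The strongest promoter peak had 24 reads (15.4 to 35.7) in young and 19 (11.4 to 29.7) in aged HSCs. Within 1 kb of the start the length under peaks was 649 bp in young and 70 bp in aged HSCs, since the aged peak began 931 bp upstream. In aged HSCs 4 H2AK119ub1 regions of 200 to 372 bp were listed, and the smallest lay inside the upstream H3K4me3 peak at 32543312 to 32543537. Fli1 and Lyl1 were the 2 members where an aged H3K4me3 peak overlapped aged H2AK119ub1, 2 of 29 peaks against 5.92% of the whole list.

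Erg (ENSMUSG00000040732.20, chromosome 16, 95359169 to 95586593, minus strand) was the only member with both H3K4me3 and H3K27me3 at promoters, and the marks lay at different start sites. At the internal start sites (95459245 to 95459348, transcripts Erg-202, Erg-203, Erg-205 and Erg-207) young HSCs had an H3K4me3 peak of 1979 bp, with 5.74-fold enrichment and 26 reads (17.0 to 38.1). With 4 more peaks downstream it brought the H3K4me3 of the window to 4014 bp, and 8 of all genes, Erg included, had as much. In aged HSCs the window held 4 peaks with 1118 bp, the strongest of 478 bp with 4.86-fold enrichment and 21 reads (13.0 to 32.1), and 123 genes had as much. The gene spans 227 kb, against a median of 17.4 kb over all genes, so its window had more room for peaks. Within 1 kb of a single start site, 118 genes in young and 360 in aged HSCs, Erg included, had as much H3K4me3.

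The upstream start of Erg at 95586593 (transcript Erg-206) had no H3K4me3 at either age and was covered by Polycomb marks at both. In young HSCs an H3K27me3 region of 4483 bp (95582284 to 95586766, 4.09-fold) spanned it. In aged HSCs this had become regions of 463 bp (3.4-fold, over the start) and 830 bp (2.89-fold, 1753 bp downstream). H2AK119ub1 went the other way by length, from regions of 379 bp (3599 bp downstream) and 222 bp (814 bp upstream) in young HSCs to a region of 1466 bp over it in aged HSCs (95585196 to 95586661, 3.38-fold). Both changes run in the direction of the list sizes. With the aged H2AK119ub1 list cut to the length of the young list, no aged region was left at an Erg promoter. The part that list length has in these changes was not tested. In aged HSCs the H2AK119ub1 regions overlapped the H3K27me3 regions by 463 and 383 bp, and in young HSCs by 222 and 379 bp. Start sites between the internal and the upstream ones, at 95524603 and 95530365, had no peak within 1 kb. By gene, Erg counts among the 2.96% of all genes with both marks at promoters in young and the 0.792% in aged HSCs. Of those 646 young genes 53 (8.2%) carried the marks at different start sites only, and of the 173 aged genes 30 (17.3%) did. Erg was in both groups. Of the members' H3K4me3 peaks 0 of 45 overlapped H3K27me3 in young and 0 of 29 in aged HSCs, against 7.4% and 2.53% of the whole lists.

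Sequences from the internal and the upstream part of Erg are shown to set the internal promoter and the H3K4me3 summits beside the Polycomb site. They are, on the minus strand of mm10, the 250 bases before the RefSeq start of the internal promoter (chr16:95459349-95459598), the summits of the young (chr16:95458085-95458384) and aged peaks (chr16:95458383-95458682), and the part of the young H3K27me3 region just upstream of Erg-206 (chr16:95586594-95586766). The internal promoter stretch lay mostly outside H3K4me3, since the young peak ended at 95459366 and the nearest aged peak at 95459001. It held 2 MEIS matches and 1 GATA match, all outside the peaks, and each summit stretch 1 E-box match (CAGCTG). The H3K27me3 stretch held no match, and its CpG observed/expected ratio was 0.981, against 0.484 and 0.708 under the summits and 0.23 in the internal promoter. The ratio was 0.495 over the whole young H3K27me3 region, 0.438 over the whole young H3K4me3 peak and 0.448 around the Erg-206 start.
Erg, internal promoter: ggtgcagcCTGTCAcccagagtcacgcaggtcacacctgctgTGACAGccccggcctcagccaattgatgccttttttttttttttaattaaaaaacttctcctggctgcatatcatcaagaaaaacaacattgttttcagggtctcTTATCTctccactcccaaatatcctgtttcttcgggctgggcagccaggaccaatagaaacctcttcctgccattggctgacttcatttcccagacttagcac
Erg, young H3K4me3 peak: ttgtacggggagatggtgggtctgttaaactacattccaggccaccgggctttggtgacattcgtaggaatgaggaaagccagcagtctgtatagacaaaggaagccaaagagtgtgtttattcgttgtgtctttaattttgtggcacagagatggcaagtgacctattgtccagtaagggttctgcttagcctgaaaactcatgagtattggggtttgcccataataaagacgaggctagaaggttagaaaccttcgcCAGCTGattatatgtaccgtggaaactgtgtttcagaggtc
Erg, aged H3K4me3 peak: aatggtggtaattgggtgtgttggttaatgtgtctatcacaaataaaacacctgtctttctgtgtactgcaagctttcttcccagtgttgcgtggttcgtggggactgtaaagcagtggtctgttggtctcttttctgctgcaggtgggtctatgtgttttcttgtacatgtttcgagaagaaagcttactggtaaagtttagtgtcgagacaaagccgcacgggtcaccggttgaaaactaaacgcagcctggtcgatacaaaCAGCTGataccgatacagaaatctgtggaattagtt
Erg, young H3K27me3 region: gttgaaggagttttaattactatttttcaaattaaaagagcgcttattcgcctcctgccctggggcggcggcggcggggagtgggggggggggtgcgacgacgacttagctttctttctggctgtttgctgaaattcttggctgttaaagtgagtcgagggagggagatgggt

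**Figure D4:**
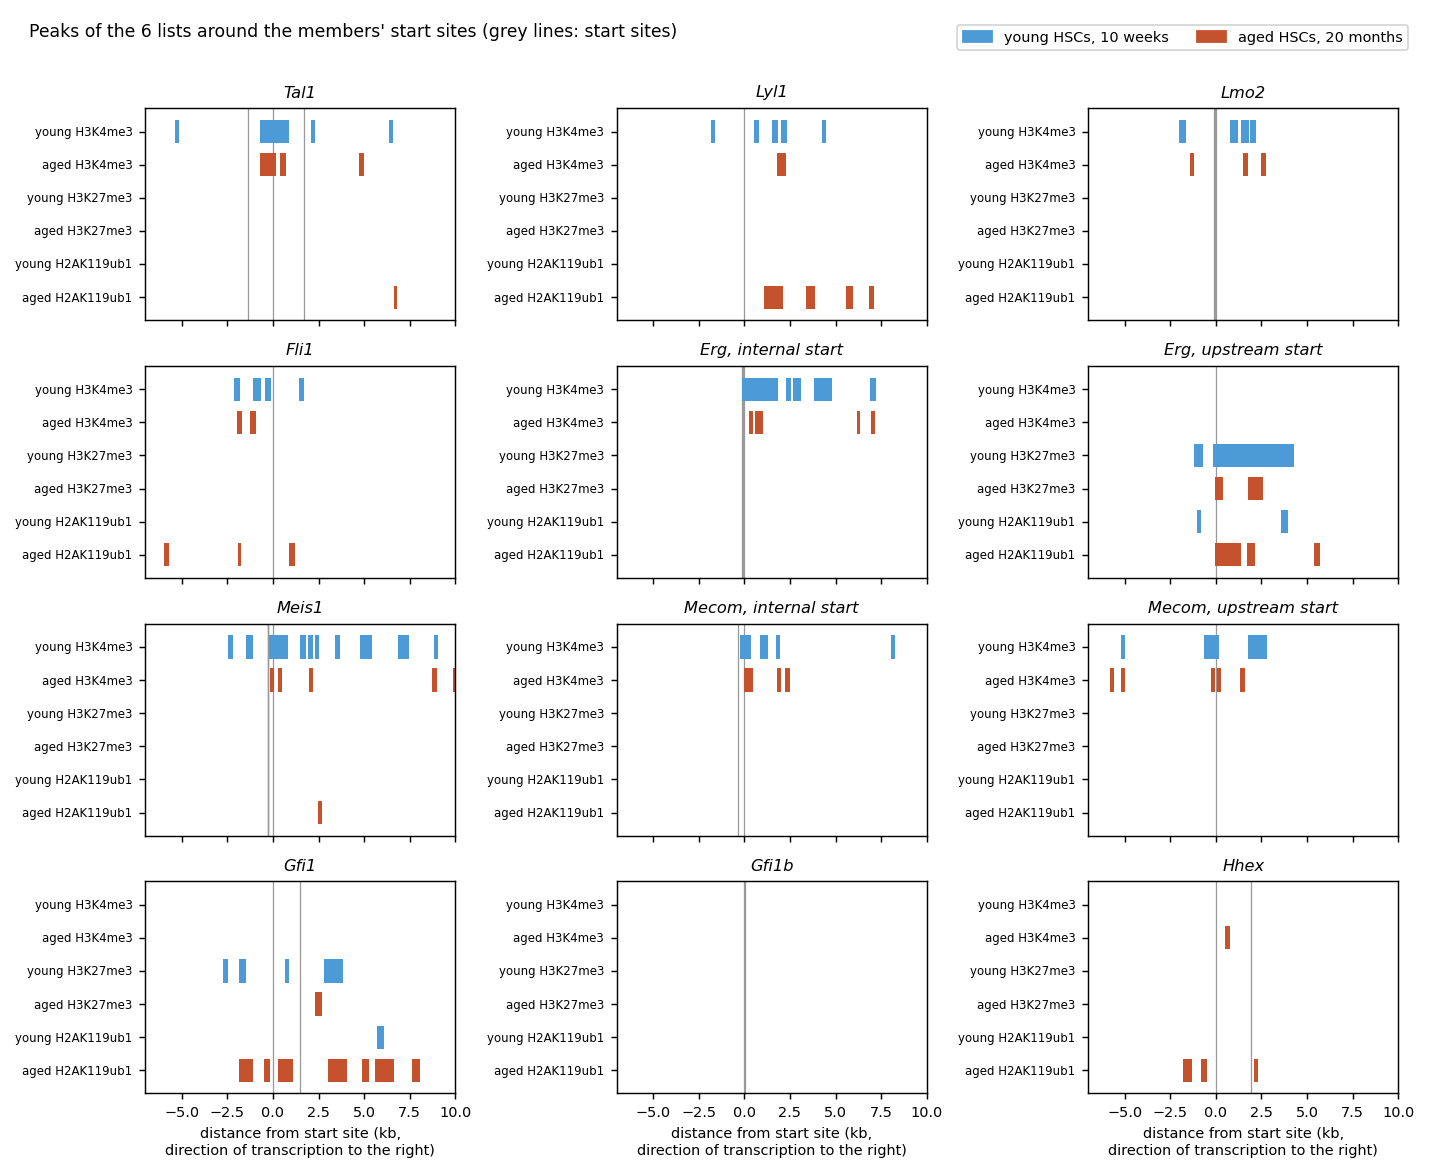
Peaks of the 6 lists (rows; young blue, aged red) by distance in kb from a start site of each member (horizontal axis, transcription to the right); grey lines are annotated start sites, and Erg and Mecom have a panel each for an internal and an upstream start. H3K4me3 fills the internal panel of Erg and Polycomb marks the upstream panel, both Mecom panels hold H3K4me3, and the Gfi1b panel is empty.

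Meis1 and Mecom had the most H3K4me3 of the members by length in their windows. Meis1 (ENSMUSG00000020160.18, chromosome 11, 18879817 to 19018985, minus strand) encodes a homeodomain partner of HOX and PBX proteins. In young HSCs it had 14 peaks with 5892 bp, and only 2 of all genes, Meis1 included, had as much. In aged HSCs it had 7 peaks with 1915 bp, and 10 genes, again with Meis1, had as much. The gene spans 139 kb, against a median of 17.4 kb over all genes, so its window had more room for peaks. Within 1 kb of a single start site, 107 genes in young and 1354 in aged HSCs, Meis1 included, had as much H3K4me3. Around the start sites, 10 young peaks with 4269 bp lay within a stretch of 11.5 kb (19009640 to 19021158). There 5 aged peaks with 1141 bp lay within 10.2 kb. The young peak over the start was 1061 bp long with 4.86-fold enrichment and 25 reads (16.2 to 36.9). Its place held aged peaks of 237 and 200 bp, the stronger with 18 reads (10.7 to 28.4). A separate group lay beyond the 3' end of the gene, 3 young peaks at 18874958 to 18877549 and 2 aged peaks at 18875429 to 18876703. The start site of the noncoding gene 8430419K02Rik lay within 1 kb of the outermost young peak, so these peaks cannot be given to Meis1 by position alone. They are counted in the window lengths and gene ranks above. The 1141 bp of the aged peaks around the start sites was below the 1540 bp in the aged window of Tal1. Within the gene, peaks also lay within 1 kb of starts of the gene models 2610001A08Rik, Gm16140 and Gm16141.

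Mecom (ENSMUSG00000027684.16, chromosome 3, 29951296 to 30548008, minus strand) encodes a zinc-finger factor, also known as EVI1, that HSCs need for their self-renewal. The gene spans 597 kb, the longest of the members, so its window had more room for peaks than the others. H3K4me3 lay at an internal and at the far upstream promoter. At the internal start 30013156, young HSCs had a peak of 617 bp with 21 reads (13.0 to 32.1) and aged HSCs a peak of 494 bp with 23 reads (14.6 to 34.5). At the far upstream start 30509733, young HSCs had a peak of 801 bp (4.27-fold) and aged HSCs peaks of 206 and 235 bp. Start sites 29997702, 30140423 and 30238319 had no peak of any mark within 1 kb at either age. In all, Mecom had 9 peaks with 4163 bp in young and 8 with 2179 bp in aged HSCs, and 6 and 3 of all genes, Mecom included, had as much. A start of the antisense gene Mecomos lay within 1 kb of the internal peaks, and ChIP-seq gives no strand. The only Polycomb region was an aged H2AK119ub1 region of 200 bp, 18628 bp from a start site.

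Gfi1 and Gfi1b encode zinc-finger repressors that recruit the histone demethylase KDM1A, and neither had an H3K4me3 peak at either age. Gfi1 (ENSMUSG00000029275.18, chromosome 5, 107716657 to 107726036, minus strand) had Polycomb marks instead. In young HSCs 4 H3K27me3 regions with 1927 bp lay at 107721958 to 107728557, the strongest with 4.0-fold enrichment upstream of the gene, and 1 of them lay at a promoter. In aged HSCs 1 region of 424 bp was listed, over a coding exon within 1 kb of a start site, and it overlapped no young region. H2AK119ub1 went from 1 region of 406 bp in young HSCs to 7 regions with 4760 bp in aged HSCs, spread over 9.94 kb of the gene and its promoters. The aged list was much the longer. Cut to the length of the young list, it kept 3 regions in all the members' windows, at Erg, Gfi1 and Hhex. In aged HSCs 233 of all genes, Gfi1 included, had as much H2AK119ub1 in their windows (1.07%). The young region lay under the aged region of 1015 bp (107719188 to 107720202), which had 3.68-fold enrichment. The gene A430072P03Rik on the other strand starts in the same promoter region. The young H3K27me3 region at the promoter (mm10, chr5:107724942-107725141, minus strand) is shown as promoter sequence under H3K27me3. It had 15 CpG dinucleotides and no motif match.
Gfi1, young H3K27me3 region: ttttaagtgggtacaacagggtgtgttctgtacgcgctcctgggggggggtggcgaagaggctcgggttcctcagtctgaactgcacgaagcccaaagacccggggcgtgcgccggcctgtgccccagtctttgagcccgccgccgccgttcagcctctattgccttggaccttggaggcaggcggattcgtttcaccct

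Gfi1b (ENSMUSG00000026815.14, chromosome 2, 28609450 to 28621982, minus strand), which is best known from red cell and megakaryocyte precursors, had no peak of any of the 6 lists in its window. Of all genes 31.6% had none. Its start sites had a CpG observed/expected ratio of 0.314 and 0.32, below the median of 0.562 over 41438 start sites. The 250 bases before its RefSeq start (mm10, chr2:28621983-28622232, minus strand) are shown as the unmarked promoter, with 5 CpG dinucleotides and 1 match to the GFI motif.
Gfi1b, promoter: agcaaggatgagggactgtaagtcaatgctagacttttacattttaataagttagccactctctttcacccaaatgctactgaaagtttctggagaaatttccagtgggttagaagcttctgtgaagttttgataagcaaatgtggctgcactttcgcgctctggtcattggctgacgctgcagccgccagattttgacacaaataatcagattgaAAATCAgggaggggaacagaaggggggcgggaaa

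Hhex (ENSMUSG00000024986.12, chromosome 19, 37434810 to 37440731, plus strand) encodes a homeodomain factor of early blood progenitors. It was the only member with peaks in the aged lists and none in the young lists. The aged H3K4me3 peak (37435327 to 37435600, 274 bp) lay 517 bp downstream of the start in an intron, with 5.08-fold enrichment and 22 reads (13.8 to 33.3) over a background of 3.52. Aged H2AK119ub1 regions of 366, 512 and 206 bp lay at 470 and 1280 bp upstream of the main start and 156 bp downstream of the start at 37436739. The aged H3K4me3 peak overlapped none of them, and the gene model Gm38345 starts within 1 kb of it. With an observed/expected ratio of 0.921, the main start of Hhex had the most CpG of the members' start sites, above 93.1% of all start sites. The sequence of the aged peak (mm10, chr19:37435327-37435600, plus strand) is shown because it appeared in the aged list alone. It had 28 CpG dinucleotides and no motif match.
Hhex, aged H3K4me3 peak: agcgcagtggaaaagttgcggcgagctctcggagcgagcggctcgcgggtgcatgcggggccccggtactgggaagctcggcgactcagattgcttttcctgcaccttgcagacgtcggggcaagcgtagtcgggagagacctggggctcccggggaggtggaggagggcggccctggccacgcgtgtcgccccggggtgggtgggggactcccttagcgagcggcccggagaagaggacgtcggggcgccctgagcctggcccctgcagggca

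The members' start sites were compared by their sequence. The median CpG observed/expected ratio was 0.649 over the 18 start sites with H3K4me3 in young HSCs and 0.32 over the 13 without. In aged HSCs it was 0.646 over 15 start sites and 0.39 over 16. The ranges overlapped widely, from 0.313 to 0.905 with and 0.159 to 0.921 without the mark in young HSCs, and neighbouring start sites share their peaks and sequence. The internal start sites of Erg held 1019 to 1122 bp of young H3K4me3 at ratios of only 0.313 to 0.352, whereas the proximal start sites of Lmo2 held 120 to 235 bp at 0.88 to 0.905.

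**Figure D5:**
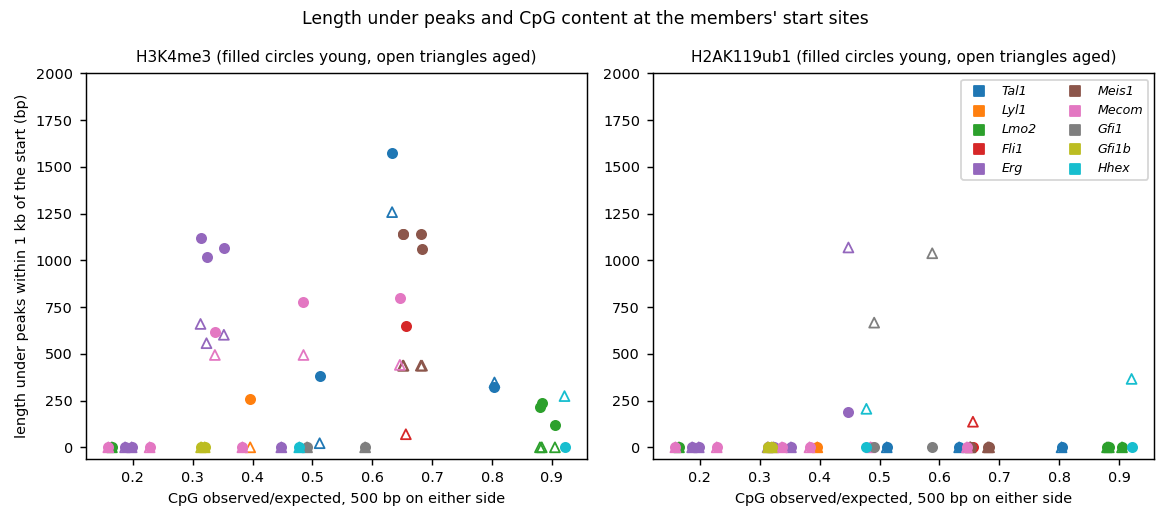
CpG observed/expected ratio within 500 bp of each of the 31 start sites (horizontal axis) against the length under H3K4me3 peaks (left) and H2AK119ub1 regions (right) within 1 kb (vertical axes, bp); colours are genes, filled circles young and open triangles aged HSCs. Erg stands at low CpG with up to 1122 bp of H3K4me3, Tal1 is highest at 1572 bp, and H2AK119ub1 reaches 1069 bp at Erg and 1038 bp at Gfi1 in aged HSCs.

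RefSeq promoters (GRCm38.p6, the same assembly as mm10, 250 bases before and 50 after a start) were matched for 8 members, with 13 promoters. No entry was matched for Lmo2 and Fli1. The GATA motif AGATAA was found in 2 of the 13 (Erg and Tal1), against 11.2% of 32851 promoters. The ETS motif CCGGAA was found in 3 (Gfi1, Lyl1 and Meis1, against 14.9%) and the RUNX motif TGTGGT in 1 (Meis1, against 16.8%). Of the E-boxes, CAGCTG was found in 0 (against 16.3%) and CAGATG in 2 (Mecom and Tal1, against 17.2%). The MEIS motif TGACAG was found in 2 (Erg and Mecom, against 19.2%) and the GFI motif AAATCA in 2 (Gfi1b and Mecom, against 14.0%). With motifs of 6 letters in 13 promoters these counts are a description of the letters alone.

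Genes that work with the members were examined as a list of 18 partners. H3K4me3 lay at the promoters of 13 of 18 in young HSCs, among them Runx1, Ldb1, Cbfa2t3, Myb, Ikzf1 and Gata2, and of 11 of 18 in aged HSCs. The shares of all genes were 33.8% and 23.3%. Gata2, Tcf12, Rcor1 and Hdac1 were marked in young HSCs alone, and Cbfb and Hoxa9 in aged HSCs alone. No partner had promoter H3K27me3 at either age, against 16.0% of all genes in young and 8.24% in aged HSCs. Aged H2AK119ub1 lay at 2 partners (Runx1 and Cbfa2t3), against 14.0% of all genes. Related genes of the same protein families, such as Tal2, Lmo1, Meis2 and Prdm16, were listed apart. Of these 12 genes H3K4me3 lay at the promoters of 8 in young and 3 in aged HSCs, the aged share of 25.0% being near that of all genes (23.3%). H3K27me3 lay at 7 and 4, against 16.0% and 8.24% of all genes. H2AK119ub1 lay at 0 and 8, against 1.91% and 14.0%.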

How the data were processed

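ChIP-seq of 3 histone marks was read from 6 pooled peak lists. The authors aligned single reads to mm10 with Bowtie2. MACS2 2.2.6 is named in the submitters' processing notes, and the layout is that of MACS narrow (H3K4me3) and broad peaks. Peak names carry a pair of library numbers for H3K4me3 and a single number for the broad lists, so it is not certain that both libraries entered these. The deposited values are the fold enrichment (a linear ratio) and −log10 of the p-value and q-value, averaged over broad regions. Overlaps were computed with Python 3.11.15, numpy 2.4.6 and pandas 2.3.3 on GENCODE M21 basic annotation, and sequences read with pysam 0.24.0. Summit reads were solved from fold and p with scipy 1.17.1 (tolerance 0.002 in −log10 p) and were found for 100.0% of the H3K4me3 peaks. Intervals cover counting error only, since duplicate reads cannot be told from molecules, and library totals were not used here. Overlap counting and read recovery were tested on simulated data. Members, lists and alternatives were chosen with earlier results of these data known. For each member, the peak with the highest −log10 q (H3K4me3) or greatest width (broad regions) was named, at a promoter where there was one, and further peaks were named after their values were seen. Some genes of the marker lists are not reported here.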

Additional observations from a re-analysis of the deposited data

How the results depend on the processing

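No paired analysis was possible because the libraries were pooled into 1 list for a mark at a given age. The 18 counts were recomputed in 102 settings, of which 71 stayed within 1.5 times. The number of members with H3K4me3 at a promoter or in a window stayed within that range in every setting, but the genes at promoters changed. With promoters of 2 kb on either side Lyl1 and Lmo2 joined the aged count (8, against 7 young). With the start sites of all transcripts Lmo2 joined it. With 500 bp promoters Lyl1 and Lmo2 left the young count, and Fli1 and Hhex the aged one. With equal list lengths Lyl1 left the young count. With peaks within 1 kb joined, the H3K4me3 peaks went from 45 to 26 in young and from 29 to 18 in aged HSCs, and with equal list lengths the young number was 25. H3K27me3 at promoters fell in young HSCs from 2 members to 1 (Erg) with 500 bp promoters, at −log10 q of at least 2 or 4, or with equal list lengths. In aged HSCs it fell to 1 with 500 bp, at −log10 q of at least 2 or with at least 50% of the region inside the promoter, and to 0 at 4, where window counts were 1 at 2 and 0 at 4. H3K27me3 regions in young HSCs went from 8 to 3 at −log10 q of 2 or with equal lengths and to 5 over gene bodies alone, and in aged HSCs from 3 to 1 at 2. Young H2AK119ub1 went to 0 members at promoters with 500 bp, and at −log10 q of 2 or 4 to 0 members and 0 regions. Aged H2AK119ub1 at promoters went from 4 members to 0 at −log10 q of 4 and to 1 with equal lengths. In windows it went from 8 members to 5 at 2, 0 at 4 and 3 with equal lengths, and from 26 regions to 9 at 2, 3 with equal lengths and 17 over gene bodies. The cause was not tested, beyond the shorter list that a higher −log10 q or an equal length makes by construction.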
